A study of Mus musculus with 12 samples.

Results

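The genes described here are 10 members of the Nrf2 pathway and the thioredoxin system, followed across 4 genotypes of mouse pancreatic tumour cells: Nfe2l2, Keap1, Nqo1, Gclc, Gclm, Hmox1, Txnrd1, Srxn1, Txnip and Txn1. They were chosen by symbol, with no expression value in the rule, but with earlier results of these data known. All 10 were found among the 24493 gene symbols of the table. All 10 passed the filter on low values that left 13662 genes for testing. RNA was sequenced from 12 libraries, 3 for each of the genotype labels WT, EgfrKO, Klf5KO and Smad4KO. Every library came from cells named 6649c2, which were implanted under the skin, grew into tumours there and were sorted out again, and the strain given is C57BL/6. WT cells carry no labelled knockout, and each other label names a knockout of 1 gene: the receptor gene Egfr, the transcription factor gene Klf5, or Smad4, whose protein carries TGF-beta and BMP signals to the nucleus. The labels name no guide, clone, sorting gate, age or animal for a library, so an effect of a gene and a difference between clones cannot be told apart. Replicates may share an animal or a culture, and p-values then measure only the spread between these libraries.

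Nrf2, encoded by Nfe2l2, is a transcription factor that switches on genes for glutathione synthesis, quinone reduction and thioredoxin recycling. Keap1 holds it in the cytoplasm and hands it to a ubiquitin ligase until oxidants or electrophiles modify cysteines of Keap1. Thioredoxin, encoded by Txn1, reduces disulfides in proteins and is itself recharged by thioredoxin reductase (Txnrd1), while Txnip binds thioredoxin and blocks it.

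The values are TPM, a length-corrected measure that gives each transcript as a share of its library. Read depth cannot be read from TPM, and no counting error is given. In TPM, Egfr was lowest in EgfrKO (4.29 ± 0.76, SD, n = 3, against 13.1 ± 0.85 in WT) and Smad4 was lowest in Smad4KO (30.7 ± 2.39 against 75.5 ± 4.45). Egfr was also below WT in the other labels, at 6.93 ± 1.45 in Klf5KO and 7.95 ± 1.88 in Smad4KO. Klf5 was at 93.8 ± 6.35 in Klf5KO, at 112 ± 16.8 in WT and at 84.9 ± 3.55 in EgfrKO, so its level does not check the Klf5KO label, and those are called the Klf5KO-labelled libraries. The epithelial markers Krt18 and Krt19 were at 714 TPM or more in every library. The summed level of 10 epithelial markers differed between genotypes, at 5891 to 6362 TPM in WT, 7900 to 8468 in EgfrKO, 4772 to 5321 in Klf5KO-labelled and 8537 to 9537 in Smad4KO libraries. Epcam was at 13.5 ± 1.84 TPM in WT, 1.30 ± 0.086 in EgfrKO, 0.54 ± 0.20 in Klf5KO-labelled and 39.5 ± 2.38 in Smad4KO libraries (SD, n = 3). Markers of other cells were present too. The summed level of 8 T and NK cell markers was 2.46 to 6.02 TPM in WT and 10.8 to 14.1 in EgfrKO libraries. It was 14.1 to 22.1 in Klf5KO-labelled and 8.41 to 12.5 in Smad4KO libraries. Every library with a knockout label was above WT, as for Gclc, Gclm and Txnip below, and a link was not tested. Endothelial markers summed to 2.51 to 3.66 TPM in WT and 7.39 to 9.8 in EgfrKO. Their sums were higher still in Klf5KO-labelled libraries and 2.57 to 3.51 in Smad4KO. The summed level of 10 macrophage markers, none of them at 0 in a whole group, was 453 to 811 TPM in WT, 854 to 924 in EgfrKO, 590 to 944 in Klf5KO-labelled and 118 to 549 in Smad4KO libraries. That of 11 fibroblast markers was 62.5 to 159, 154 to 163, 357 to 735 and 68.6 to 98.2 TPM in the same order. Every Klf5KO-labelled library was above all others, so a fit with these markers as a covariate cannot separate that label from their level. The median log2 fold change of all tested genes against WT was 0.14 in EgfrKO, 0.31 in the Klf5KO-labelled and 0.10 in the Smad4KO libraries. Each result was also computed after median-of-ratios scaling, which divides each library by its typical ratio to the mean library and centres the genes close to 0.

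Short stretches of promoter are shown because 4 of these genes carry, close to a transcript start, a sequence that Nrf2 or the related AP-1 factors are known to read, and Txnip carries one that sugar-responsive factors read. They come from RefSeq with coordinates of the build GRCm38.p6, as do the gene positions below. Of the 10 genes, 8 had a window of 250 bases before and 50 after a transcript start, in 10 windows, and Gclc and Hmox1 had none. Sequences run 5′ to 3′ on the strand of the gene, with the match in capitals.
Gclm (chr3:122245398-122245456, plus strand, reverse complement of TGACNNNGC): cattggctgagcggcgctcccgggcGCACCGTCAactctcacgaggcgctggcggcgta
Nfe2l2 (chr2:75704870-75704913, minus strand, TGACNNNGC): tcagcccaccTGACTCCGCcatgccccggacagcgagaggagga
Txnrd1, second of its 3 windows (chr10:82859089-82859147, plus strand, reverse complement of TGACNNNGC): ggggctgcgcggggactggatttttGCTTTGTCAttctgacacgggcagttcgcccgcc
Srxn1 (chr2:152105397-152105510, plus strand, TGANTCA at 2 places): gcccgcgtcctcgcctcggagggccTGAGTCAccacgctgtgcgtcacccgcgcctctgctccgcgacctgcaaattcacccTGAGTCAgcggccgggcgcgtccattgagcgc
Txnip (chr3:96557847-96557913, plus strand, carbohydrate response element): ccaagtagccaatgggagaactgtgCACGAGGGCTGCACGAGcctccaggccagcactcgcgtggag

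TGACNNNGC is the core of the antioxidant response element, the site of Nrf2 with a small Maf protein, and it was searched on both strands. It lay at positions -134 to -126 of Gclm, -240 to -232 of Nfe2l2 and -92 to -84 of Txnrd1, counted from the transcript start of each window. Srxn1 held it only after the start, at positions 29 to 37, and held the AP-1 site TGANTCA at -102 to -96 and -45 to -39. Both sequences can overlap, since an antioxidant response element often contains an AP-1 site. In Srxn1 the AP-1 site at -45 to -39 is followed by GC, and so reads TGAGTCAGC. This differs from TGACNNNGC only by a G in place of the C, and that form was not searched for. Of all 32851 windows, 12.4% held TGACNNNGC and 7.81% held TGANTCA, so a match is common. The windows of Keap1, Nqo1 and Txn1 held none of the sequences searched, which says only that these letters are not in these windows. The E-box CACGTG, present in 7.15% of windows, was not in the windows of the 8 genes. The Txnip sequence, at -85 to -69, is its carbohydrate response element, a tandem site for the glucose-responsive factors of the Mondo family. Its letters were searched for after the windows had been seen, and the window of Txnip was the single one of 32851 that held them.

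The first question is whether the regulator and its inhibitor differed between genotypes. Nfe2l2 (RefSeq gene 18024, chromosome 2, 75675513 to 75704663) rose in Smad4KO. It was at 86.0, 96.8 and 85.6 TPM in WT replicates 1, 2 and 3 and at 114, 127 and 115 TPM in Smad4KO. In EgfrKO it was at 81.6, 83.0 and 80.5 TPM and in the Klf5KO-labelled libraries at 84.9, 86.4 and 80.0 TPM. Every Smad4KO library was above every other library. The log2 fold change in Smad4KO was 0.41 ± 0.060 (SE, limma adjusted p = 0.000181), and 0.29 after scaling (adjusted p = 0.000949). In EgfrKO it was -0.13 ± 0.060 (limma adjusted p = 0.106) and in the Klf5KO-labelled libraries -0.093 ± 0.060 (limma adjusted p = 0.196). After scaling these were -0.28 and -0.44, with limma adjusted p of 0.00204 and 5.56e-05, so a call of lower Nfe2l2 there depends on the scaling.

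Keap1 (gene 50868, chromosome 9, 21229730 to 21239332), the inhibitor, moved little. It was at 38.1, 33.6 and 34.7 TPM in WT, at 42.0, 39.1 and 37.6 in EgfrKO, at 44.4, 42.5 and 43.7 in Klf5KO-labelled and at 43.1, 46.2 and 42.0 in Smad4KO libraries. WT and EgfrKO overlapped, and the other groups lay above WT. The log2 fold change in Smad4KO was 0.30 ± 0.063 (SE, limma adjusted p = 0.00213) and stayed called after scaling, at 0.19 (adjusted p = 0.0108). In the Klf5KO-labelled libraries 0.29 ± 0.063 (limma adjusted p = 0.00164) became -0.056 after scaling (adjusted p = 0.396) and 0.074 with the fibroblast markers as a covariate (0.759), so no direction is given there. In EgfrKO it was 0.15 ± 0.063 (limma adjusted p = 0.0675), and without WT replicate 1 or EgfrKO replicate 3 the call appeared (0.0293 and 0.0486), while after scaling it was 0.0073 (0.926) and with quantile normalization 0.042 (0.542).

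**Figure D1:**
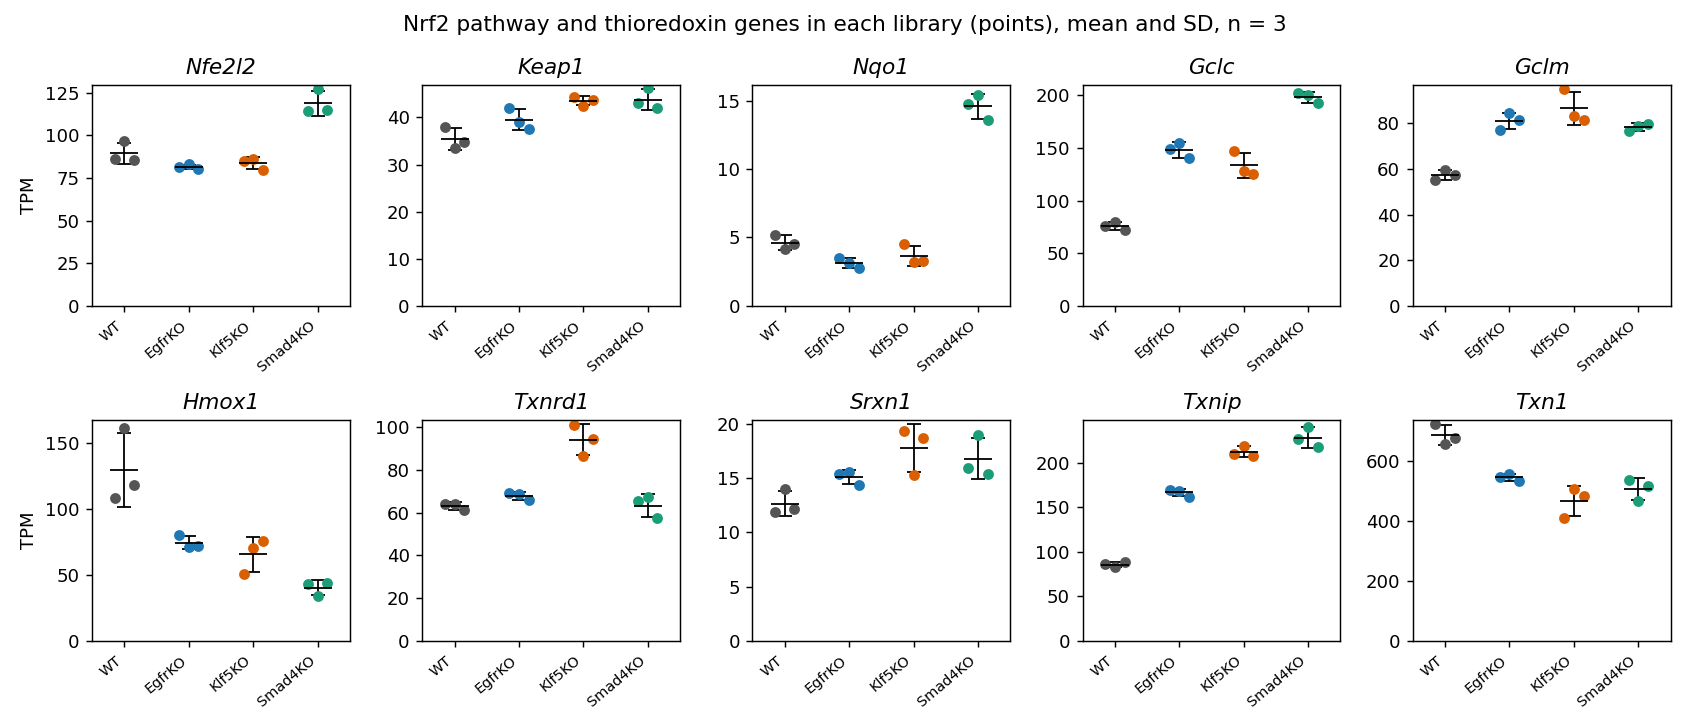
TPM of each of the 10 genes (vertical axes, each from 0) in the 4 genotypes, with a point for each library and the mean and SD of 3. Nqo1 is near 15 TPM in Smad4KO and 2.77 to 5.21 TPM elsewhere, Gclc and Txnip are lowest in WT, and Hmox1 and Txn1 are highest in WT.

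The next question concerns the first step of glutathione synthesis, carried out by an enzyme of a catalytic subunit, Gclc, and a modifier subunit, Gclm, that makes it more efficient. Gclc (gene 14629, chromosome 9, 77754535 to 77794489) rose against WT in each of the knockout labels, which share the WT libraries as their control. It was at 75.6, 79.7 and 71.9 TPM in WT, at 149, 155 and 140 in EgfrKO, at 147, 128 and 125 in Klf5KO-labelled and at 202, 200.1 and 192 in Smad4KO libraries. No library with a knockout label came down to the WT range, and Smad4KO lay above all. Its level was 1.95 times WT in EgfrKO, 1.76 in the Klf5KO-labelled and 2.62 in the Smad4KO libraries. The log2 fold changes were 0.96 ± 0.066, 0.81 ± 0.066 and 1.38 ± 0.066 (SE), with limma adjusted p of 1.33e-06, 1.79e-06 and 3.36e-08, and after scaling they were 0.81, 0.46 and 1.27. Smad4KO exceeded EgfrKO by 0.42 ± 0.066 on the log2 scale (EgfrKO minus Smad4KO -0.42, limma adjusted p = 0.000562). EgfrKO and the Klf5KO-labelled libraries differed by 0.15 ± 0.066 (adjusted p = 0.0707), a call that appeared after scaling (0.35, 0.00011) and without Klf5KO replicate 1 (0.22, 0.00767).

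Gclm (gene 14630, chromosome 3, 122245487 to 122267215) rose less and more evenly. It was at 55.0, 59.3 and 57.3 TPM in WT, at 77.2, 84.3 and 81.4 in EgfrKO, at 94.8, 83.3 and 81.4 in Klf5KO-labelled and at 76.5, 78.8 and 79.7 in Smad4KO libraries. WT lay below every other library, EgfrKO overlapped the other knockout labels, and the Klf5KO-labelled libraries lay just above Smad4KO. The log2 fold changes were 0.49 ± 0.061, 0.58 ± 0.061 and 0.45 ± 0.061 (SE), with limma adjusted p of 8.28e-05, 1.00e-05 and 9.48e-05, and after scaling 0.35, 0.23 and 0.34. No difference between knockout labels passed the threshold, with limma adjusted p of 0.228 for EgfrKO against the Klf5KO-labelled libraries, 0.601 for EgfrKO against Smad4KO and 0.068 for Klf5KO-labelled against Smad4KO. Without Klf5KO replicate 3 the last was called (0.0373). With the fibroblast markers as a covariate the Klf5KO-labelled fold change was 0.46 and its call was lost (adjusted p = 0.0746), and those markers were higher in all of these libraries than in any WT library.

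In Smad4KO the Nrf2 targets Nqo1 and Hmox1 changed in opposite directions. Nqo1 (gene 18104, chromosome 8, 107388225 to 107403205) encodes a quinone reductase that is widely used as a readout of Nrf2. It was at 5.21, 4.14 and 4.49 TPM in WT and at 14.7, 15.4 and 13.6 TPM in Smad4KO, 3.16 times WT. Every Smad4KO library was above every other library, as EgfrKO had 3.48, 3.15 and 2.77 TPM and the Klf5KO-labelled libraries 4.52, 3.22 and 3.26 TPM. The log2 fold change of 1.48 ± 0.12 (SE, limma adjusted p = 2.05e-06) was 1.39 after scaling and 1.30 to 1.64 over all alternatives tried. Nqo1 fell in EgfrKO, by 0.44 ± 0.12 on the log2 scale (limma adjusted p = 0.0141), and without WT replicate 1 that call was lost (0.0552). In the Klf5KO-labelled libraries the log2 fold change was -0.27 ± 0.12 (limma adjusted p = 0.0715), and it was called after scaling, at -0.56 (0.00104), or without Klf5KO replicate 1, at -0.40 (0.0106). Nqo1 was the least abundant of the 10 genes, so that fold changes on the scale of TPM plus 1 understate its change.

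The genes whose pattern over the 12 libraries was most like that of Nqo1 were Gstm1, a glutathione S-transferase, and Tmem45b. The measure of likeness is the root mean square difference of log2(TPM + 1) with each gene centred on its own mean, and it was 0.17 for Gstm1 and 0.22 for Tmem45b. Gstm1 was at 126 ± 13.2 TPM in WT, 103 ± 4.77 in EgfrKO, 108 ± 14.0 in Klf5KO-labelled and 393 ± 18.1 in Smad4KO libraries (SD, n = 3). Reads of Gstm1 may be shared with close members of its family, so its level is uncertain.

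Hmox1 (gene 15368, chromosome 8, 75093618 to 75100593) encodes haem oxygenase 1, which breaks haem into biliverdin, iron and carbon monoxide and is induced in macrophages and under many stresses. It fell against WT in each of the knockout labels. WT had 108, 162 and 118 TPM, EgfrKO 80.1, 71.2 and 71.7, the Klf5KO-labelled libraries 50.5, 70.8 and 75.6, and Smad4KO 43.4, 33.9 and 43.8. All WT libraries lay above all others, and all Smad4KO libraries lay below all others. Its level was 57.4%, 50.7% and 31.2% of WT in EgfrKO, Klf5KO-labelled and Smad4KO libraries. The log2 fold changes were -0.77 ± 0.17, -0.97 ± 0.17 and -1.65 ± 0.17 (SE), with limma adjusted p of 0.00358, 0.000375 and 1.01e-05, and after scaling -0.92, -1.32 and -1.76.

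In each genotype, the library that stood farthest from its group in Hmox1 also stood at the end of its group in the macrophage sum. WT replicate 2 had 811 TPM of macrophage markers and 162 TPM of Hmox1, against 480 and 453 TPM of markers in WT replicates 1 and 3. Smad4KO replicate 2 had 118 TPM of markers and 33.9 TPM of Hmox1, against 549 and 541 TPM of markers in Smad4KO replicates 1 and 3. Between genotypes the order differed by label. All EgfrKO libraries had more of these markers than any WT library and less Hmox1. Smad4KO libraries had 118 to 549 TPM of markers, against 453 to 811 in WT, and the least Hmox1. In a bulk sample, fewer cells of a type and less RNA per cell cannot be told apart. With the macrophage markers as a covariate the log2 fold changes of Hmox1 were -0.94, -1.07 and -1.42 (limma adjusted p = 0.000284, 2.83e-05 and 1.31e-05). Without WT replicate 2 they were -0.60, -0.80 and -1.48, and without Smad4KO replicate 2 the last was -1.53, all still called. With the fibroblast markers as a covariate the Klf5KO-labelled fold change was -0.25 and the call was lost (adjusted p = 0.674). Against Smad4KO, the Hmox1 calls of EgfrKO and Klf5KO-labelled libraries were lost with the macrophage markers as a covariate (limma adjusted p = 0.0653 and 0.0715).

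**Figure D2:**
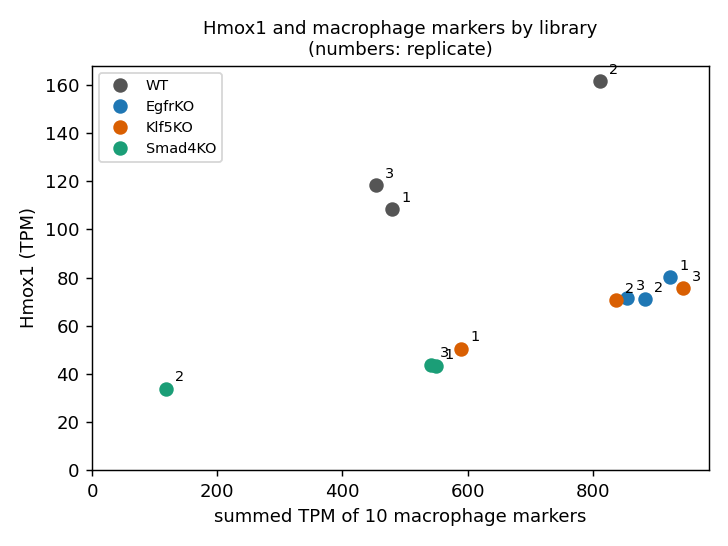
Hmox1 in TPM (vertical axis) against the summed TPM of 10 macrophage markers (horizontal axis), with a point for each library, coloured by genotype and numbered by replicate. The WT libraries lie above all others at 108 to 162 TPM of Hmox1, and the Smad4KO libraries below all others. Marker sums are 453 to 811 TPM in WT and 854 to 924 in EgfrKO libraries. They are 590 to 944 in Klf5KO-labelled and 118 to 549 in Smad4KO libraries.

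The pattern most like that of Hmox1 was that of Hspa1b, a stress-induced heat shock protein, with a root mean square difference of 0.22, followed by Nr1d1, a clock repressor that binds haem, with 0.23. Hspa1b was at 303 ± 56.0 TPM in WT, 144 ± 13.9 in EgfrKO, 141 ± 26.4 in Klf5KO-labelled and 82.3 ± 4.45 in Smad4KO libraries (SD, n = 3), and its reads can be shared with its near copy Hspa1a. Nr1d1 was at 74.0 ± 7.60, 45.8 ± 2.57, 35.4 ± 3.15 and 25.1 ± 0.72 TPM in the same order.

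In the thioredoxin system thioredoxin and its inhibitor changed in opposite directions. Txn1 (gene 22166, chromosome 4, 57943373 to 57956411), the cytosolic thioredoxin, was the most abundant of the 10 genes. It was at 722, 658 and 676 TPM in WT, at 547, 556 and 533 in EgfrKO, at 411, 505 and 483 in Klf5KO-labelled and at 535, 466 and 517 in Smad4KO libraries. No library with a knockout label reached the lowest WT value. Txn1 fell by 0.33 ± 0.076, 0.56 ± 0.076 and 0.44 ± 0.076 on the log2 scale (SE), with limma adjusted p of 0.00489, 6.04e-05 and 0.000543, and after scaling the fold changes were -0.48, -0.91 and -0.55. With the fibroblast markers as a covariate the Klf5KO-labelled call on Txn1 was lost (log2 fold change -0.32, adjusted p = 0.251).

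Txnip (gene 56338, chromosome 3, 96557957 to 96561857), the thioredoxin-binding inhibitor that is also an arrestin-like brake on glucose uptake, rose against WT in each of the knockout labels. It was at 86.1, 82.4 and 88.3 TPM in WT, at 169, 169 and 162 in EgfrKO, at 210, 219 and 208 in Klf5KO-labelled and at 227, 241 and 218 in Smad4KO libraries. The WT libraries were lowest, the EgfrKO libraries came next without touching any other group, and the Klf5KO-labelled and Smad4KO libraries overlapped. Its level was 1.95, 2.48 and 2.67 times WT. The log2 fold changes were 0.95 ± 0.048, 1.30 ± 0.048 and 1.40 ± 0.048 (SE), with limma adjusted p of 2.02e-07, 8.93e-09 and 4.75e-09, and after scaling 0.80, 0.95 and 1.29. EgfrKO was below Smad4KO by 0.45 on the log2 scale (EgfrKO minus Smad4KO -0.45 ± 0.048, limma adjusted p = 3.04e-05). The Klf5KO-labelled libraries differed from Smad4KO by -0.10 ± 0.048 (adjusted p = 0.0736), a call that appeared after scaling (-0.35, 8.92e-05) and without Smad4KO replicate 3 (-0.14, 0.0394).

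The genes with a pattern most like that of Txnip were Tgm2, a transglutaminase, with a root mean square difference of 0.11, and Scly, a selenocysteine lyase, with 0.12. Tgm2 was at 153 ± 15.2 TPM in WT, 320 ± 15.5 in EgfrKO, 414 ± 33.1 in Klf5KO-labelled and 444 ± 14.8 in Smad4KO libraries (SD, n = 3). Scly was at 7.40 ± 0.57, 15.7 ± 1.13, 17.8 ± 0.34 and 19.6 ± 1.56 TPM in the same order.

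Txnrd1 (gene 50493, chromosome 10, 82833951 to 82897724), a selenium-containing reductase that uses NADPH to recharge thioredoxin, rose only in the Klf5KO-labelled libraries among the contrasts with WT, and the differences between labels were tested directly. It was at 64.3, 63.9 and 61.1 TPM in WT, at 69.1, 68.8 and 65.8 in EgfrKO, at 101, 86.8 and 94.8 in Klf5KO-labelled and at 65.5, 67.2 and 57.4 in Smad4KO libraries. The Klf5KO-labelled libraries lay above all others. The log2 fold change there was 0.57 ± 0.069 (SE, limma adjusted p = 2.71e-05) and 0.22 after scaling (adjusted p = 0.00349), which is less by a factor of over 1.5. Against EgfrKO and Smad4KO the Klf5KO-labelled libraries were higher by 0.46 and 0.57 on the log2 scale (EgfrKO minus Klf5KO -0.46 ± 0.069, adjusted p = 0.000161, and Klf5KO minus Smad4KO 0.57 ± 0.069, adjusted p = 2.15e-05). With the fibroblast markers as a covariate the fold change against WT was 0.27 and the call was lost (0.233), as were those against EgfrKO and Smad4KO (0.129 and 0.407). In EgfrKO and Smad4KO it was 0.10 ± 0.069 and 0.0031 ± 0.069 (limma adjusted p = 0.242 and 0.975), with a sign that turned after scaling.

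Srxn1 (gene 76650, chromosome 2, 152105524 to 152111376) encodes sulfiredoxin, which repairs over-oxidised peroxiredoxins. It was at 11.9, 14.0 and 12.1 TPM in WT, at 15.4, 15.6 and 14.4 in EgfrKO, at 19.4, 15.3 and 18.7 in Klf5KO-labelled and at 16.0, 19.0 and 15.4 in Smad4KO libraries. WT lay just below the other groups, which overlapped. The log2 fold changes were 0.24 ± 0.10, 0.46 ± 0.10 and 0.38 ± 0.10 (SE), with limma adjusted p of 0.0827, 0.00231 and 0.0103. After scaling they were 0.10, 0.12 and 0.28, and only the last was called (adjusted p = 0.383, 0.253 and 0.0208), a call that quantile normalization removed (0.0659). The Klf5KO-labelled call was also lost with the fibroblast markers as a covariate (0.74).

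**Figure D3:**
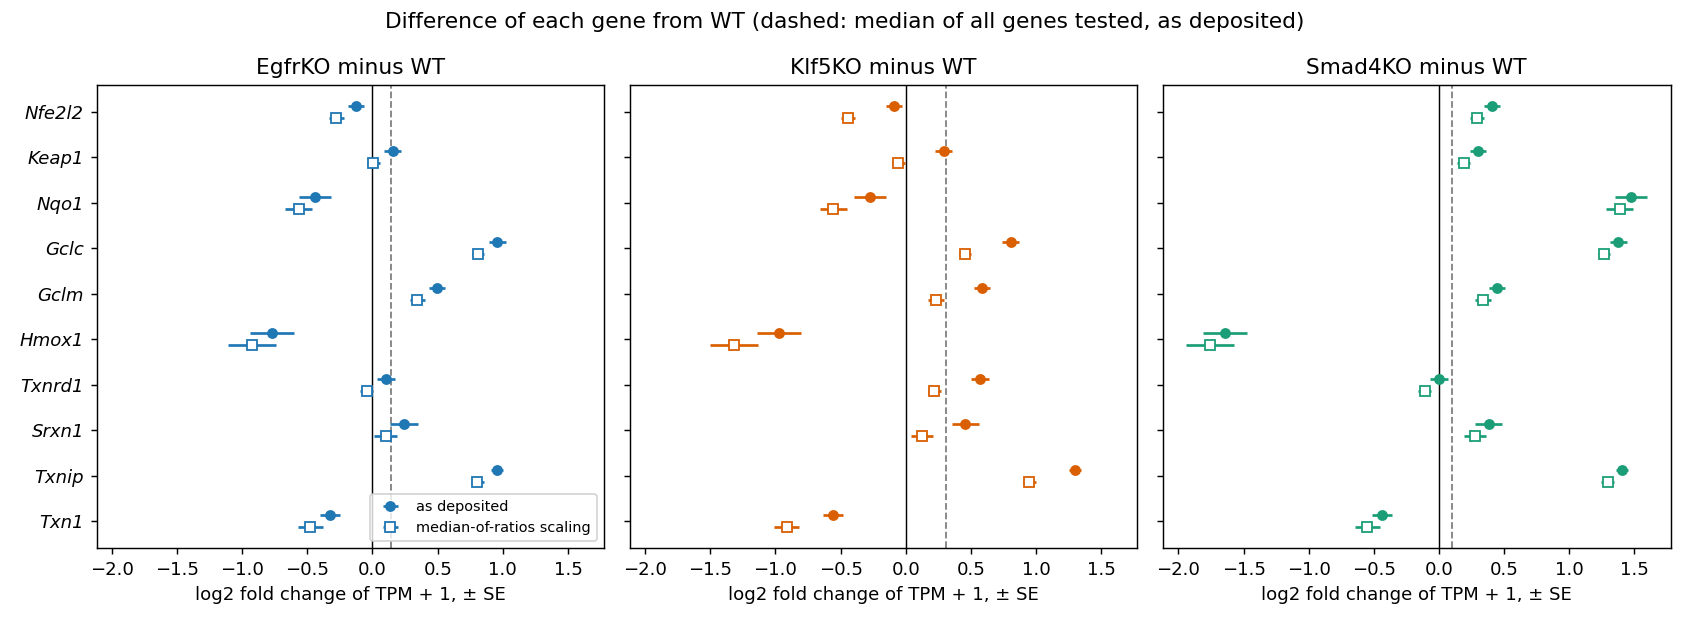
Log2 fold change of TPM + 1 against WT (horizontal axis, with SE) of the 10 genes in EgfrKO, Klf5KO-labelled and Smad4KO libraries, as deposited (filled circles) and after median-of-ratios scaling (open squares). Gclc, Gclm and Txnip stay above 0 and Hmox1 and Txn1 below 0 under both, while Keap1 in the Klf5KO-labelled libraries crosses 0.

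Counted over the 10 genes, 3 rose and 3 fell in EgfrKO against WT, where 31.3% of all tested genes rose and 12% fell. After scaling 3 rose and 4 fell there, where 18.2% of all tested genes rose and 22.1% fell. In the Klf5KO-labelled libraries 6 rose and 2 fell, where 55.2% of all tested genes rose and 11.1% fell, and after scaling 4 rose and 4 fell, where 24.9% rose and 27.3% fell. In Smad4KO 7 rose and 2 fell, where 32.2% of all tested genes rose and 17.4% fell, and after scaling again 7 rose and 2 fell, where 24.8% rose and 25.2% fell. As deposited, the share that rose in EgfrKO and in the Klf5KO-labelled libraries was close to that of all genes. Groups that did not overlap with WT were higher for 5 and lower for 4 of the 10 genes in EgfrKO, against 40.1% and 15.9% of all tested genes. They were higher for 6 and lower for 2 in the Klf5KO-labelled libraries, against 57.1% and 11.9%, and higher for 7 and lower for 2 in Smad4KO, against 38.3% and 20.8%. The median log2 fold change of the 10 genes was 0.13, 0.37 and 0.39, against 0.14, 0.31 and 0.10 for all tested genes. After scaling it was -0.018, 0.035 and 0.29, against 0.0051, -0.0067 and -0.0024. With the fibroblast markers as a covariate 2 genes, Gclc and Txnip, rose and 0 fell in the Klf5KO-labelled libraries, by limma. In all of these the summed level of those markers was above that of every library of the other labels, so this fit cannot separate label and markers. Its SE was wider, at 0.15 against 0.060 for Nfe2l2 without the covariate. The share of all tested genes called in this fit is not given, so its counts of 2 and 0 show no trait of the 10 genes.

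Between knockout labels, each count of the 10 genes stands beside the share of all tested genes. Against Smad4KO, EgfrKO had 1 of the 10 genes higher, Hmox1, and 4 lower, Nfe2l2, Nqo1, Gclc and Txnip, where 18.7% of all tested genes were higher and 14.5% lower. The Klf5KO-labelled libraries had 2 higher than Smad4KO, Hmox1 and Txnrd1, and 3 lower, Nfe2l2, Nqo1 and Gclc, where 45.5% were higher and 18.3% lower. EgfrKO had 1 higher than the Klf5KO-labelled libraries, Txn1, and 2 lower, Txnrd1 and Txnip, where 14.7% were higher and 40.5% lower. The Txn1 difference of 0.23 ± 0.076 (SE, limma adjusted p = 0.0216) was no longer called without EgfrKO replicate 1 (0.0512) or 2 (0.0633), without Klf5KO replicate 1 (0.0797), or with the fibroblast markers as a covariate (0.797). After scaling EgfrKO had 1 higher and 5 lower than Smad4KO, where 17.1% of all tested genes were higher and 19.0% lower. The Klf5KO-labelled libraries then had 1 higher and 6 lower than Smad4KO, where 29.7% were higher and 30.8% lower, and EgfrKO had 3 higher and 2 lower than they, where 26.4% were higher and 25.6% lower. Groups did not overlap for 1 gene higher and 5 lower in EgfrKO against Smad4KO, where 27.1% and 20.8% of all tested genes did not. Those numbers were 3 and 3 for Klf5KO-labelled against Smad4KO, where 47.7% and 19.5% did not, and 1 and 3 for EgfrKO against Klf5KO-labelled libraries, where 16.4% and 44.8% did not. The Nqo1 differences were -1.92 ± 0.12 for EgfrKO minus Smad4KO and -1.75 ± 0.12 for Klf5KO minus Smad4KO (SE, limma adjusted p = 7.89e-07 and 3.14e-07). The Hmox1 differences were 0.87 ± 0.17 and 0.68 ± 0.17 (limma adjusted p = 0.00222 and 0.00417). With the macrophage markers as a covariate the Hmox1 calls were lost, at 0.48 and 0.35 (adjusted p = 0.0653 and 0.0715), and after scaling the second was lost too, at 0.44 (0.0578).

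Ratios of TPM within a library do not change with the scaling of that library. Txnip per Txn1 was 0.13 ± 0.0057 in WT, 0.31 ± 0.0036 in EgfrKO, 0.46 ± 0.045 in Klf5KO-labelled and 0.45 ± 0.054 in Smad4KO libraries (SD, n = 3). The inhibitor was therefore 2.44, 3.65 and 3.61 times as high relative to its target as in WT. Txnrd1 per Txn1 was 0.092 ± 0.0044, 0.12 ± 0.0016, 0.20 ± 0.038 and 0.13 ± 0.017 in the same order. Gclm per Gclc was 0.76 ± 0.036, 0.55 ± 0.032, 0.65 ± 0.0044 and 0.40 ± 0.018, lowest in Smad4KO at 0.523 times the WT ratio. Keap1 per Nfe2l2 was 0.40 ± 0.048, 0.48 ± 0.027, 0.52 ± 0.027 and 0.37 ± 0.0074. Of the 12 contrasts of these 4 ratios with WT, 11 did not overlap WT, each with an exact two-sided permutation p of 0.1, the smallest that 3 libraries against 3 allow, and 0.109 after adjustment over the 12. For Keap1 per Nfe2l2 in Smad4KO the groups overlapped (exact permutation p = 0.4).

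**Figure D4:**
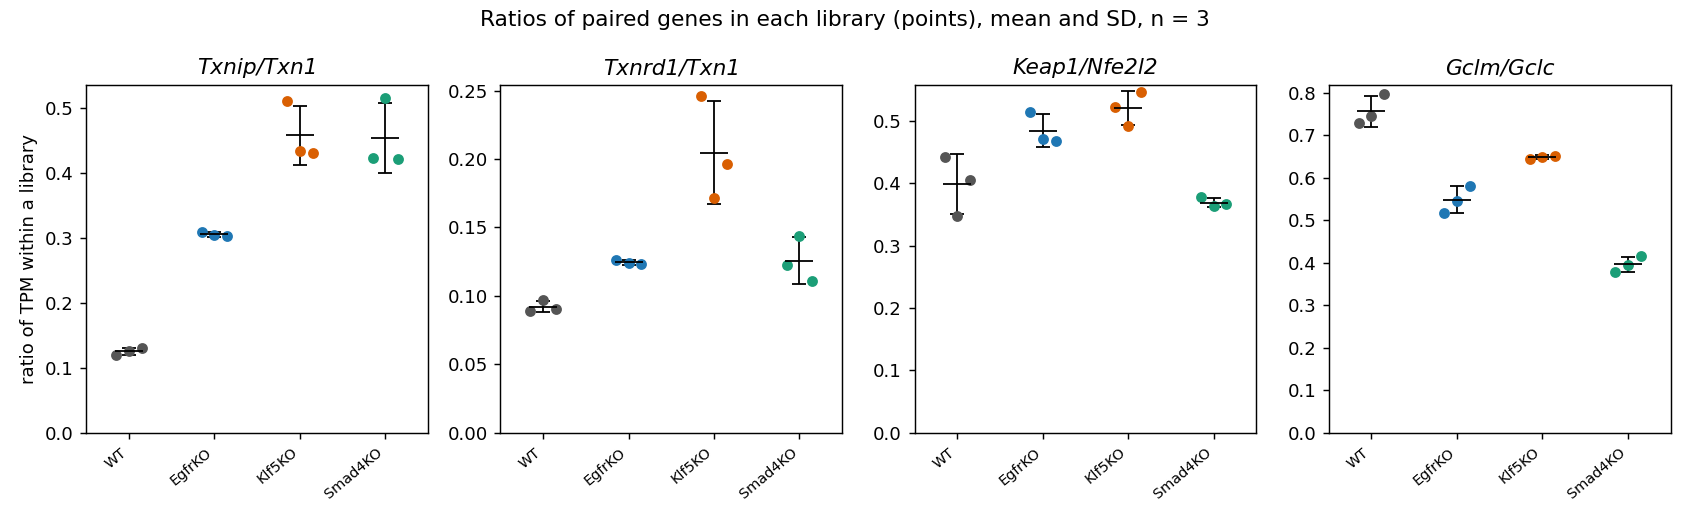
Ratio of TPM of 2 genes within each library (vertical axes, each from 0) by genotype, with a point for each library and the mean and SD of 3. Txnip per Txn1 rises from 0.13 in WT to 0.31 in EgfrKO and about 0.45 in Klf5KO-labelled and Smad4KO libraries, and Gclm per Gclc is lowest in Smad4KO at 0.40.

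Other genes of the pathway were counted from 7 lists, also chosen with earlier results of these data known. In Smad4KO 15 of 20 glutathione and conjugation genes rose and 3 fell, with a median log2 fold change of 0.56 against 0.10 for all tested genes, of which 32.2% rose and 17.4% fell. After scaling 13 rose and 4 fell, where 24.8% of all tested genes rose and 25.2% fell. The epithelial marker sum was also higher in all Smad4KO than in all WT libraries, 8 of 9 tested epithelial markers rose there, and their part in these counts was not tested. Gpx2, a glutathione peroxidase of epithelia, went from 5.31 ± 1.64 TPM in WT to 113 ± 2.86 in Smad4KO (SD, n = 3), with a log2 fold change of 4.21 ± 0.16 (SE, limma adjusted p = 7.69e-09). Mgst3, a microsomal transferase, went from 230.3 ± 2.62 to 440.0 ± 23.3 TPM. Of 16 quinone, carbonyl and other Nrf2 target genes 9 rose and 4 fell in Smad4KO, or 8 and 4 after scaling, with a median of 0.34. Cbr3, a carbonyl reductase, went from 5.04 ± 0.30 to 50.0 ± 3.18 TPM (log2 fold change 3.08 ± 0.075, limma adjusted p = 6.55e-10). Aldh3a1, an aldehyde dehydrogenase, went from 17.9 ± 1.81 to 83.9 ± 0.30 TPM (2.18 ± 0.11, 3.62e-08). Of 8 NADPH-forming enzymes 5 rose and 1 fell, or 3 and 1 after scaling, with Me1, malic enzyme, from 106 ± 5.93 to 243 ± 24.5 TPM. Slc7a11, the cystine transporter and a well known Nrf2 target, was chosen after its values were seen, and it fell in Smad4KO, from 10.6 ± 0.59 to 8.02 ± 0.89 TPM (-0.37 ± 0.12, limma adjusted p = 0.0202). In the Klf5KO-labelled libraries it rose to 19.0 ± 3.23 TPM (0.77 ± 0.12, limma adjusted p = 0.000124).

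In EgfrKO, where 31.3% of all tested genes rose and 12% fell, 8 of the 20 glutathione and conjugation genes rose and 4 fell, with a median of 0.12. After scaling 5 rose and 6 fell, with a median of -0.025, where 18.2% of all tested genes rose and 22.1% fell. The balance thus turned in the list as it did in all tested genes. The epithelial marker sum was higher in all EgfrKO than in all WT libraries, and of 9 tested epithelial markers 5 rose and 2 fell there. Their part in these counts was not tested. Mgst1, a microsomal transferase, fell from 172 ± 7.85 to 87.5 ± 5.74 TPM (log2 fold change -0.97 ± 0.065, limma adjusted p = 1.16e-06). Its relative Mgst3 rose in EgfrKO (log2 fold change 0.72 ± 0.050, limma adjusted p = 1.47e-06, 0.57 after scaling). Quinone, carbonyl and other target genes split as 5 and 5 there, or 4 and 5 after scaling, and 6 of 8 NADPH-forming enzymes rose, or 3 with 1 that fell after scaling. Of those enzymes 4 rose and 1 fell in the Klf5KO-labelled libraries, and after scaling 0 rose and 4 fell by limma. In the Klf5KO-labelled libraries 4 glutathione and conjugation genes rose and 6 fell, where 55.2% of all tested genes rose and 11.1% fell, and after scaling 1 rose and 17 fell, where 24.9% rose and 27.3% fell. The epithelial marker sum was also lower in all of these libraries than in any WT library, 7 of 9 tested epithelial markers fell there, and their part in these counts was not tested. Gpx2 was at 0.053 ± 0.091 TPM there (-2.55 ± 0.16, limma adjusted p = 3.00e-07), and Gsta4, a transferase for lipid aldehydes, fell from 284 ± 51.1 to 68.2 ± 17.9 TPM. Of the 16 quinone, carbonyl and other target genes 6 rose and 8 fell in those libraries, and after scaling 1 rose and 10 fell. Their median was -0.20, or -0.51 after scaling. Cbr1, a carbonyl reductase, fell from 11.3 ± 1.56 to 3.60 ± 0.31 TPM there, and Gstm1, Gpx2 and Gsta4 have relatives with similar sequence, so their reads are uncertain.

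Of 11 tested regulators 1 rose and 5 fell in EgfrKO, 4 rose and 3 fell in the Klf5KO-labelled libraries, and 2 rose and 3 fell in Smad4KO. Of all tested genes 31.3%, 55.2% and 32.2% rose there, and 12%, 11.1% and 17.4% fell. After scaling these were 1 and 5, 2 and 6, and 2 and 7, so that falls outnumbered rises in each contrast, where 22.1%, 27.3% and 25.2% of all tested genes fell. Maff, a small Maf protein that can pair with Nrf2 and is induced by stress, fell from 146 ± 15.2 TPM in WT to 60.8 ± 2.08, 64.0 ± 9.74 and 65.3 ± 3.15 TPM, with limma adjusted p of 3.39e-06, 2.14e-06 and 2.57e-06. Sqstm1, the autophagy receptor that binds Keap1, fell from 521 ± 65.2 TPM in WT to 302 ± 8.52 in EgfrKO, 321 ± 10.4 in Smad4KO and 379 ± 12.9 in Klf5KO-labelled libraries (limma adjusted p = 1.40e-05, 1.60e-05 and 0.000274). Other regulators rose. Nfe2l1 rose in the Klf5KO-labelled libraries by 0.57 ± 0.060 on the log2 scale (SE, limma adjusted p = 1.04e-05), or 0.22 after scaling. Trim21 was chosen after its values were seen. It rose by 1.13, 1.48 and 0.96 in EgfrKO, Klf5KO-labelled and Smad4KO libraries (limma adjusted p = 0.000316, 1.85e-05 and 0.000626). After scaling these were 1.02, 1.18 and 0.88.

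Of 26 further thioredoxin, peroxiredoxin and glutaredoxin genes, 8 rose and 1 fell in EgfrKO, 11 rose and 3 fell in the Klf5KO-labelled libraries, and 12 rose and 7 fell in Smad4KO. After scaling these were 2 and 4, 3 and 12, and 6 and 8, where 18.2%, 24.9% and 24.8% of all tested genes rose. The shares of all tested genes that then fell were 22.1%, 27.3% and 25.2%. As deposited 31.3%, 55.2% and 32.2% of all tested genes rose, and 12%, 11.1% and 17.4% fell. The share of this list that rose was close to that of all genes in EgfrKO and below it in the Klf5KO-labelled libraries. Glrx, a glutaredoxin, rose from 25.1 ± 1.89 TPM to 61.1 ± 0.37 in Smad4KO, and Prdx4, the peroxiredoxin of the endoplasmic reticulum, fell from 76.8 ± 3.75 to 34.9 ± 2.45 TPM (limma adjusted p = 3.62e-08 and 1.05e-07). Sesn3, a sestrin, rose from 11.1 ± 0.77 to 32.9 ± 5.15 TPM in the Klf5KO-labelled libraries (adjusted p = 1.08e-06, limma). Of 9 haem and ferritin genes 3 rose and 2 fell in EgfrKO, 4 rose and 1 fell in the Klf5KO-labelled libraries, and 6 rose and 2 fell in Smad4KO, while after scaling these were 1 and 2, 2 and 3, and 6 and 2. The ferritin light chain Ftl1, which stores iron freed from haem and has many near copies that can share its reads, fell from 4258 ± 203 TPM in WT to 3252 ± 44.8, 2979 ± 304 and 2959 ± 134 TPM, with limma adjusted p of 0.00116, 6.18e-05 and 8.21e-05. Other genes of that list rose. The smallest adjusted p was that of Fech in the Klf5KO-labelled libraries (log2 fold change 0.59 ± 0.072, SE, limma adjusted p = 3.18e-05, 0.24 after scaling). In Smad4KO it was that of Alas1 (0.70 ± 0.085, limma adjusted p = 3.93e-05, 0.60 after scaling). Of 7 alpha-arrestins and Mondo factors 2 rose and 1 fell in EgfrKO, 3 rose and 1 fell in the Klf5KO-labelled libraries, and 3 rose in Smad4KO. After scaling 1 rose and 1 fell in EgfrKO, 3 fell in the Klf5KO-labelled libraries, and 3 rose and 1 fell in Smad4KO. The direction in the Klf5KO-labelled libraries turned with the scaling, as did the balance of all tested genes given above. Arrdc4, the arrestin closest to Txnip in its control by sugar and chosen after its values were seen, was at 1.56 ± 1.20 TPM in WT and 3.79 ± 0.83, 3.45 ± 1.94 and 1.89 ± 1.05 TPM in the others, with limma adjusted p of 0.0541, 0.0781 and 0.698.

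**Figure D5:**
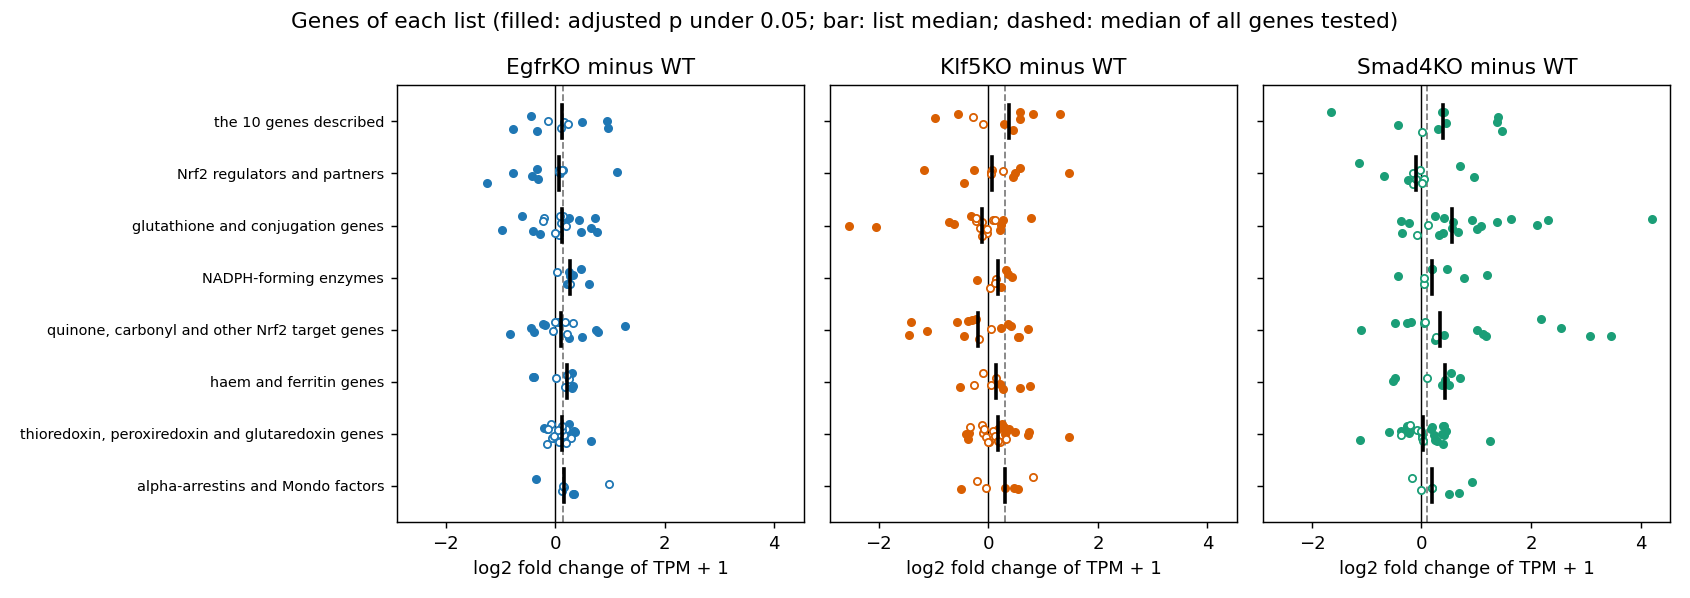
Log2 fold change of TPM + 1 against WT (horizontal axis) of each tested gene of the 10 described and of 7 further lists, with filled points at adjusted p under 0.05, a bar at each list's median and a dashed line at the median of all tested genes. In Smad4KO the glutathione list has a median of 0.56 and Gpx2 reaches 4.21, and in the Klf5KO-labelled libraries the medians of the glutathione and quinone lists lie below 0.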

How the data were processed

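Values are TPM per gene symbol, computed and deposited by the authors in 1 table with a column for each of 12 libraries. The submitters' processing notes name Salmon and mm10, and the sources used here do not give the version, the transcript annotation or how transcripts were summed. Genotypes were taken from the sample titles, and every column was matched by its name.

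On log2(TPM + 1), limma 3.58.1 in R 4.3.3 fitted 4 genotype means over all 12 libraries, with a trend in the spread, to the 13662 genes at 1 TPM or more in at least 3 libraries. Tests were two-sided, with Benjamini and Hochberg's adjustment over all tested genes within a contrast and a threshold of 0.05. SE and p come from that fit, and SD is over 3 libraries. The fit was tested on simulated data. The 10 genes, the lists, the tests and the rules were chosen with earlier results of these data known. The rule names all 10 genes, the 2 genes most like each of the 3 members with the widest range (among genes with a named symbol and a mean of at least 5 TPM), and the 2 members of each list with the smallest adjusted p in a contrast.

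Alternatives were a pseudocount of 0.1, no filter or a filter at 5 TPM, scaling by median of ratios, quantiles made equal, the 20 most abundant genes left out, no trend, only the 2 groups compared, a replicate block, macrophage or fibroblast markers as a covariate, and each library left out. Leaving out ribosomal protein genes was added after the data were seen, and these took 12.6% to 14.0% of TPM in Klf5KO-labelled and 17.7% to 20.1% in other libraries.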

Additional observations from a re-analysis of the deposited data

How the results depend on the processing

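The counts of genes that rose or fell in EgfrKO and Smad4KO against WT stayed within 1.5 times under every alternative. In the Klf5KO-labelled libraries the 2 genes that fell became 4 with median-of-ratios scaling, quantile normalization or ribosomal protein genes left out, and 0 with the fibroblast covariate, where the 6 that rose became 2. The 1 gene higher in EgfrKO than in the Klf5KO-labelled libraries became 3 with median-of-ratios scaling and 2 with quantile normalization or ribosomal protein genes left out, and ranged from 0 to 1 without single libraries, with 0 without EgfrKO replicate 1 or 2 in turn. The 2 lower there became 1 with the fibroblast covariate. The 1 higher in EgfrKO than in Smad4KO became 0 with the macrophage covariate. Of the Klf5KO-labelled libraries against Smad4KO, the 2 higher became 1 with median-of-ratios scaling or either covariate, and the 3 lower became 6 with median-of-ratios scaling and 5 with quantile normalization or ribosomal protein genes left out. With median-of-ratios scaling the shares of all tested genes moved the same way. Those that fell in the Klf5KO-labelled libraries against WT went from 11.1% to 27.3%. Those higher in EgfrKO than in the Klf5KO-labelled libraries went from 14.7% to 26.4%. Of the Klf5KO-labelled libraries against Smad4KO, those higher went from 45.5% to 29.7% and those lower from 18.3% to 30.8%. Such shares are not given for the other alternatives, so whether these moves are particular to the genes described was not tested. The cause was not tested.

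With 3 libraries a group, correlations cannot settle whether equal replicate numbers pair the samples. Of 18 same-numbered pairs 1 had a correlation of deviations over 0.1, and 2 of 12 libraries correlated best with their own number. With the replicate block the 1 gene higher in EgfrKO than in the Klf5KO-labelled libraries became 2, and Nqo1 in Klf5KO-labelled against WT, with an unchanged log2 fold change of -0.27, had a limma adjusted p of 0.0376.

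Signs turned in differences that were not called by limma, except that of Keap1 in Klf5KO-labelled against WT, which became -0.056 with median-of-ratios scaling and -0.020 with quantile normalization. Txnrd1 in EgfrKO against WT became -0.044 with median-of-ratios scaling. Txnrd1 in Smad4KO against WT became -0.11 with median-of-ratios scaling, -0.071 with quantile normalization, -0.020 without the 20 most abundant genes, -0.040 with the macrophage covariate, -0.021 without ribosomal protein genes, and ranged from -0.040 to 0.072 without single libraries. For EgfrKO minus Klf5KO, median-of-ratios scaling gave 0.17 for Nfe2l2, then called (adjusted p = 0.0247), 0.063 for Keap1 and 0.11 for Gclm. Quantile normalization gave 0.12, 0.062 and 0.056 for them. The fibroblast covariate gave 0.020 for Nfe2l2, 0.020 for Keap1, 0.25 for Nqo1, -0.33 for Hmox1 and 0.017 for Srxn1, and leaving out ribosomal protein genes gave 0.065 for Nfe2l2 and 0.0090 for Gclm. For Klf5KO minus Smad4KO, Gclm became -0.10, -0.015 and -0.012 and Srxn1 -0.15, -0.12 and -0.30 with median-of-ratios scaling, quantile normalization and the fibroblast covariate, and Srxn1 -0.0087 without ribosomal protein genes. Keap1 there became 0.068 with the macrophage covariate and ranged from -0.036 to 0.031 without single libraries, and Txn1 0.16 with the fibroblast covariate. For EgfrKO minus Smad4KO the fibroblast covariate gave -0.012 for Gclm and -0.039 for Txnrd1.

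TPM hold no read depth, so counting error at low values, such as those of Nqo1, is unknown.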
